A study of Mus musculus with 4 samples.

Results

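The serpin genes were taken as every row of the deposited expression table whose symbol begins with Serpin, a clade letter from a to i and a digit. This gave 62 of 24138 rows. The rule uses the symbol and no measured value. They were followed through the livers of 4 male C57BL/6J mice, 18 weeks old, all fed the FAT-MASH diet and all treated with RvD1 (resolvin D1, a lipid mediator made from docosahexaenoic acid). The FAT-MASH diet is used to produce metabolic dysfunction-associated steatohepatitis, a fatty liver disease with inflammation and scarring. RNA came from whole liver and was sequenced after poly(A) enrichment. The 4 livers form a single group and carry the numbers of the labels. Livers without RvD1 or without the diet were not analysed here, so nothing below measures an effect of either.

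Serpins are proteins of a shared fold that mostly inhibit serine proteases. The target protease cuts an exposed strand, the reactive centre loop, and is then trapped and inactivated. The residue at the cut decides much of which protease is caught, so genes with nearly the same body and different loops encode inhibitors with different targets. Hepatocytes secrete most serpins of plasma, among them antitrypsin, antithrombin and the complement C1 inhibitor, while the clade B serpins lack a classical secretion signal and act mostly inside cells. A few members inhibit nothing and carry hormones or assist the folding of collagen.

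Values are FPKM, fragments scaled by transcript length and by library size, so levels can be set side by side between genes. A gene was called expressed at a mean of at least 1 FPKM over the 4 livers. By this rule 28 of the 62 serpin genes (45.2%) were expressed, against 43.7% of all rows. The means of 14 members reached 100 FPKM, 7 lay between 10 and 100, and 7 between 1 and 10. A further 13 members had some value but a mean below 1 FPKM, and 21 were listed at 0 in every liver (32.2% of all rows were). Chromosome 12 holds 23 members, 14 of them expressed. Library depth was approximated at 18.9 to 20.1 M fragments (M, mega), so that 1 fragment on a transcript of 1 kb would be worth 0.0496 to 0.0529 FPKM. The estimate used genes whose FPKM times length (less 200 bases) lay between 25 and 75, 65 to 104 genes per liver. This set window itself bounds the estimate, so the depth is rough and its closeness between livers cannot be read as a result.

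The deposited zeros need a caution that touches the most abundant serpins. Albumin (Alb), Apoe, Trf and Scd1, which the liver makes in quantity, are listed at 0 in all 4 livers, so a 0 can stand for an estimate that was not made. Among the 1554 rows that reached 50 FPKM in some liver, 5 (0.322%) were listed at 0 in others. Of these, 3 are antitrypsin genes (Serpina1a, Serpina1b and Serpina1c), and the other rows are the small RNA genes Snora31 and Mir703. In what follows such a value is called listed at 0, and results that rest on these 3 genes are given with and without them. The other hepatocyte markers examined (Ttr, Apoa1, Cps1, Cyp2e1 and Hnf4a) were all expressed.

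Serpin transcripts together made up 3.04%, 2.86%, 2.10% and 1.98% of the summed FPKM of livers 1 to 4 (2.49% ± 0.532, SD, n = 4). With the 3 antitrypsin genes set aside, the shares were 1.69%, 1.60%, 2.10% and 1.98% (1.84% ± 0.236). The order of the livers therefore turns on those 3 rows: livers 1 and 2 are the highest with them and the lowest without them.

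**Figure D1:**
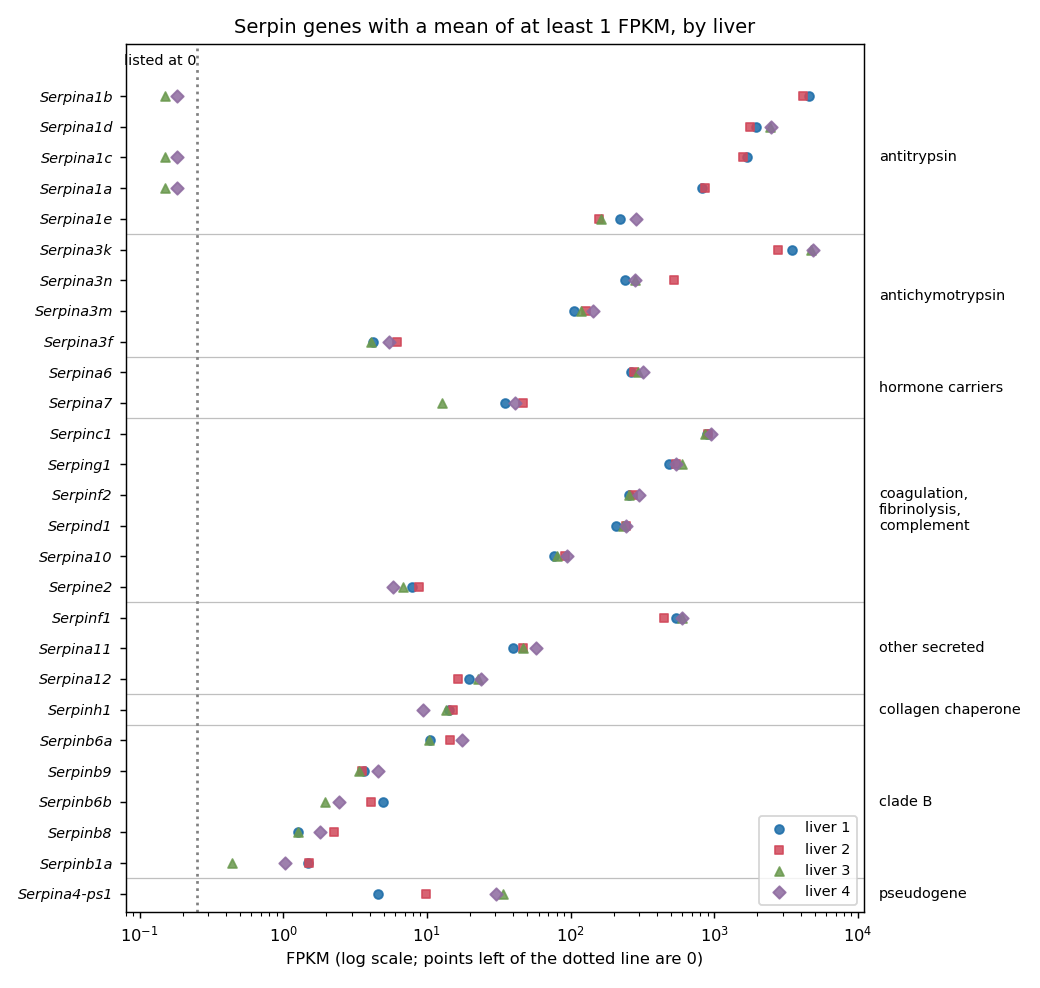
Level of 27 of the 28 expressed serpin genes in each of the 4 livers, in FPKM on a log axis, with 1 point per liver and genes grouped by role; points left of the dotted line are listed at 0. Levels span from 4557 FPKM for Serpina1b in liver 1 and 4869 FPKM for Serpina3k in liver 4 down to 0.442 FPKM for Serpinb1a in liver 3, and for most genes the 4 livers lie close together next to the differences between genes.

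Antitrypsin is the main plasma inhibitor of neutrophil elastase. Mice carry several copies of its gene side by side on chromosome 12, here Serpina1a to Serpina1f between 103646632 and 104044443 in an interval that also holds Serpina6, Serpina9, Serpina11 and Serpina12. The loop codons are printed because the loop is the part that meets the protease. The 21 codons below run from the hinge of the loop and are given for the minus strand of chromosome 12 (GRCm38, transcripts of GENCODE vM21), 5′ to 3′. Capitals mark bases that differ from Serpina1b, in which all letters are therefore in lower case.
Serpina1b (chr12:103728332-103728394): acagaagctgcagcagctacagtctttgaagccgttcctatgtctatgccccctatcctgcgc
Serpina1a (chr12:103853765-103853827): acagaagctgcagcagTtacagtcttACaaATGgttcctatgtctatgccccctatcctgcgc
Serpina1c (chr12:103895102-103895164): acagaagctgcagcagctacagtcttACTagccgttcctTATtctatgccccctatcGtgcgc
Serpina1d (chr12:103763770-103763832): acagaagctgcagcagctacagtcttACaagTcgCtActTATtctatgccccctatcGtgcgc
Serpina1e (chr12:103947108-103947170): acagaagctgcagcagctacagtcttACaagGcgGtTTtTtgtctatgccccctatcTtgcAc

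Serpina1a differed from Serpina1b at 6 of the 63 bases, Serpina1c at 7, and Serpina1d and Serpina1e at 9 each. Codon 14, that of the residue before the cut, reads ATG in Serpina1a and Serpina1b, TAT in Serpina1c and Serpina1d, and TTG in Serpina1e. Over the whole coding sequence of 1239 bases the 5 copies were 96.3% to 98.5% identical, against 84.1% to 93.7% over the loop codons. Every antitrypsin pair was thus less alike in the loop than over the whole coding sequence.

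The same likeness bears on the measurement, because a short fragment from an identical stretch cannot be assigned to 1 copy. Exact 100-base stretches found in the transcript of another gene made up 61.0% of the transcript of Serpina1a, 58.5% of Serpina1c, 29.3% of Serpina1d, 26.4% of Serpina1b and 18.2% of Serpina1e. Levels of the single copies are therefore uncertain. Of the 28 expressed serpin genes, 18 shared no stretch of this length.

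Serpina1b was the highest serpin gene where it had a value, at 4557 and 4143 FPKM in livers 1 and 2, and was listed at 0 in livers 3 and 4. Serpina1c stood at 1689 and 1591 FPKM in livers 1 and 2, and Serpina1a at 826 and 858 FPKM, both again listed at 0 in livers 3 and 4. The 3 genes were thus missing in the same livers. Serpina1d measured 1961, 1786, 2464 and 2475 FPKM in livers 1 to 4 (2171 ± 351), in a deposited span that overlaps the annotated Serpina1b. The higher values of Serpina1d were those of the livers in which the other 3 genes were listed at 0. Serpina1e, the lowest copy with a value, measured 219, 157, 162 and 284 FPKM (206 ± 59.5). Serpina1f was listed at 0 throughout.

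Livers 1 and 2 have a value for all 5 copies. Serpina1d was 0.430 and 0.431 of Serpina1b, Serpina1c 0.371 and 0.384 of it, and Serpina1a 0.181 and 0.207 of it. Serpina1b made up 49.3% and 48.5% of the summed antitrypsin FPKM there, and Serpina1e 2.37% and 1.84%. The proportion that moved most was that of Serpina1e, with Serpina1b 20.8-fold above it in liver 1 and 26.4-fold in liver 2. The sum over the copies was 9252, 8536, 2626 and 2759 FPKM in livers 1 to 4, and with 3 rows listed at 0 the last 2 sums cannot be read as lower antitrypsin expression. Whether those zeros came from the quantification or from the livers was not tested.

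**Figure D2:**
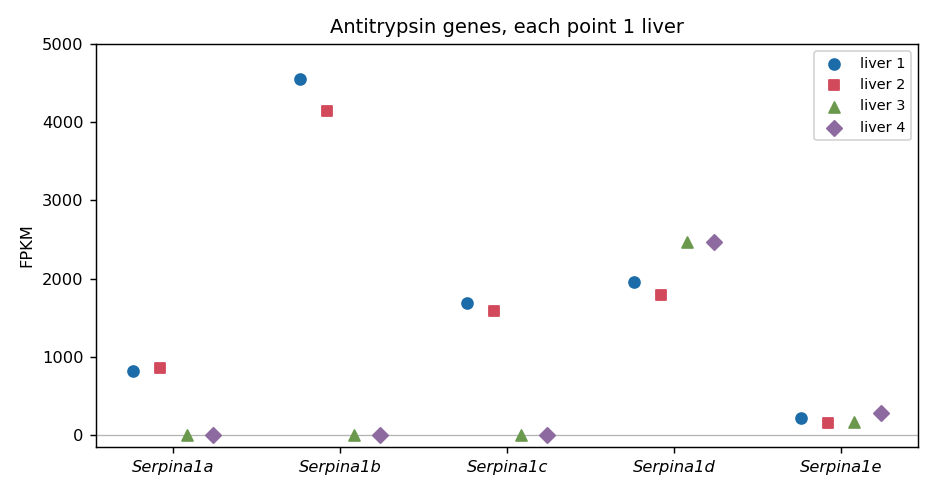
FPKM of the 5 antitrypsin genes with a value, on a linear axis, 1 point per liver. Serpina1a, Serpina1b and Serpina1c have points at 0 for livers 3 and 4, where Serpina1d lies at 2464 and 2475 FPKM.

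The sequence before the transcription start of the antitrypsin copies was examined next. In the RefSeq promoters of GRCm38 (250 bases before to 50 after the start), the antitrypsin copies were 91.4% to 97.6% identical over 239 to 300 aligned bases. All 5 expressed copies hold GTTAAT, 1 arm of the palindrome that the hepatocyte factor HNF1 binds. The arm occurred, on either strand, in 7.10% of 32851 promoters and for 11 of the 51 serpin genes with a promoter in the table. The first rate is per promoter and the second per gene. A stretch of 80 bases is shown for Serpina1b and Serpina1d, on the minus strand, with the arm in capitals.
Serpina1b (chr12:103738200-103738279): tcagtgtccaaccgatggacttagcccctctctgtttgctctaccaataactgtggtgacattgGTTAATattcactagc
Serpina1d (chr12:103773634-103773713): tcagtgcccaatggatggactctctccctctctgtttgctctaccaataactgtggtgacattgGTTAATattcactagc

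These stretches differed at 7 bases, all before the arm, and Serpina1a, Serpina1c and Serpina1e differed from Serpina1b at 3 each. Between 10 and 72 bases lay between the arm and the annotated start. A match describes the letters in this window and shows no binding. Promoters for 11 members were not in the table.

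The antichymotrypsin genes are a second mouse expansion on chromosome 12, of which 10 rows are members and 4 were expressed. Serpina3k, which encodes a kallikrein-binding serpin, is the highest serpin gene with a value in every liver. Serpina3n encodes an acute phase serpin that inhibits cathepsin G and granzyme B. Their loop codons are printed with those of Serpina3m because the 3 genes, all at over 100 FPKM, are less alike there than over the whole coding sequence. They are read on the plus strand of chromosome 12 (GRCm38, GENCODE vM21), with the 15 bases of the hinge in capitals.
Serpina3k (chr12:104345272-104345337): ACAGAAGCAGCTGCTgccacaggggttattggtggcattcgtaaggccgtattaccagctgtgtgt
Serpina3m (chr12:104393772-104393843): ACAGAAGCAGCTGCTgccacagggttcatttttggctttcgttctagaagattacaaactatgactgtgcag
Serpina3n (chr12:104413451-104413522): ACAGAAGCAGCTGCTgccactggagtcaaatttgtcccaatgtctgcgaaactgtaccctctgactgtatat

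The hinge bases were identical in all 3 genes, but the loops were located by the residues that the hinge encodes. Past the hinge the genes diverged. Over the printed loop, hinge included, identity was 69.4% for Serpina3k with Serpina3m, 63.9% for Serpina3k with Serpina3n and 65.3% for Serpina3m with Serpina3n. The coding sequences as a whole were 91.1%, 82.7% and 85.2% identical in the same order. Exact 100-base stretches found in another gene's transcript made up 4.85% of Serpina3k, 6.09% of Serpina3m and 0.204% of Serpina3n, so these levels are less exposed to shared stretches than those of antitrypsin. The deposited span of Serpina3k does, however, overlap the annotated Serpina3m.

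**Figure D3:**
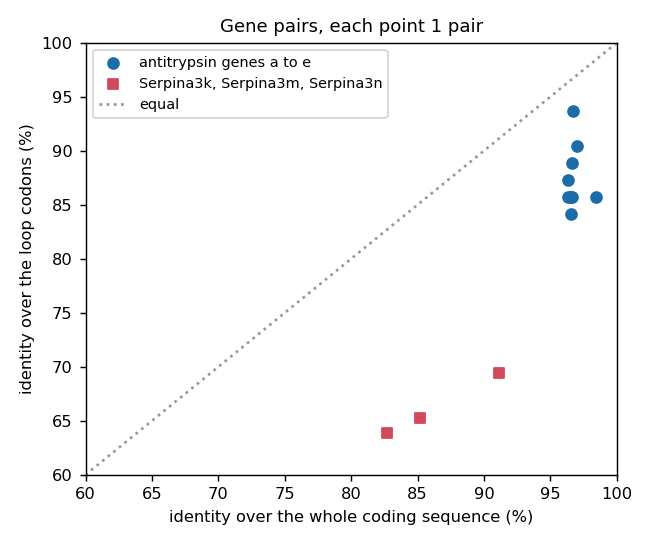
Identity of gene pairs over the loop codons (vertical axis, percent) against identity over the whole coding sequence (horizontal axis, percent), 1 point per pair, with a dotted line where both are equal. All 10 antitrypsin pairs and all 3 antichymotrypsin pairs lie under the line, the latter at 63.9% to 69.4% over the loop.

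Serpina3k measured 3456, 2771, 4725 and 4869 FPKM in livers 1 to 4 (3955 ± 1013). Livers 3 and 4 held the high values and liver 2 the lowest. It made up 21.7%, 18.6%, 43.6% and 43.1% of all serpin FPKM. With the 3 antitrypsin genes set aside it made up 39%, 33.2%, 43.6% and 43.1%, so most of the distance between the livers in this share came with those rows. Serpina3n measured 240.3, 528, 283 and 279.7 FPKM (333 ± 132). Liver 2 was 1.87-fold above the next liver, and the other 3 lay close together. The gap of liver 2 to the next liver was 0.794 of the whole range on log2(FPKM + 1), short of the limit at which Dixon's test at 95% sets 1 sample of 4 apart, and 0.853 on FPKM, past that limit.

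Serpina3m measured 106, 128, 119 and 144 FPKM (124 ± 16), with no liver apart. Serpina3f measured 4.24, 6.19, 4.11 and 5.45 FPKM, in a span that also covers Serpina3g. The other 6 rows stayed below 1 FPKM: Serpina3c (0.192 to 0.368 FPKM), Serpina3h (0.126 to 0.347) and Serpina3b (0.0714 to 0.25) had a value in all livers, and Serpina3i, Serpina3j and Serpina3a were each listed at 0 in 1 liver.

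The order of the 2 highest antichymotrypsin genes was the same in every liver, but their distance was not. Serpina3k stood 14.4-fold above Serpina3n in liver 1, 5.25-fold in liver 2, 16.7-fold in liver 3 and 17.4-fold in liver 4. In liver 2 Serpina3k was at its lowest and Serpina3n at its highest. Serpina3n over Serpina3m gave 2.27, 4.14, 2.38 and 1.94, again with liver 2 apart from the rest.

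Liver 2 also held the highest values of 9 of 10 acute phase genes examined, against 22.0% of all expressed rows. Haptoglobin (Hp) measured 2059, 3598, 1634 and 2454 FPKM in livers 1 to 4. The serum amyloid gene Saa1 measured 139, 2135, 45.6 and 131 FPKM, and Saa2 107, 2106, 42.6 and 96.1 FPKM. Liver 2 was 15.4-fold and 19.7-fold above the next liver for these genes, the widest distances of the list. For the other 7 genes highest in liver 2 the distance ran from 1.01-fold for Fgg, 1.47-fold for Hp and 1.85-fold for Itih4 to 6.26-fold for Lcn2, a range that holds the 1.87-fold of Serpina3n. The exception was the fibrinogen gene Fgb, highest in liver 4 at 1939 FPKM. The sum of 5 neutrophil markers was also highest in liver 2, at 17.8 FPKM against 7.88 to 10.5 elsewhere, with Mpo and Cxcr2 near 0. So was the stellate sum, at 295 FPKM against 191 to 233 elsewhere. Other sums were highest in liver 2 by little. The endothelial sum was 49.6 FPKM against 49.5 in liver 4. The cholangiocyte sum was 21.9 against 20.3 in liver 3, and the lymphocyte sum 4.31 against 4.02 in liver 1. The macrophage sum was highest in liver 4. Liver 2 was highest for 4 of 6 expressed stellate, 3 of 5 endothelial, 1 of 4 cholangiocyte and 1 of 2 lymphocyte markers (22.0% of all expressed rows). The hepatocyte marker sum was lowest in liver 2, at 21888 FPKM against 22269 to 30338. Cyp2e1 and Cps1 were lowest there, as Serpina3k was, while Apoa1 and Hnf4a were lowest in liver 1 and Ttr in liver 3. The part of any of these lists in the value of Serpina3n was not tested. In whole liver RNA, more or fewer cells of a type and more or less RNA per cell cannot be told apart.

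**Figure D4:**
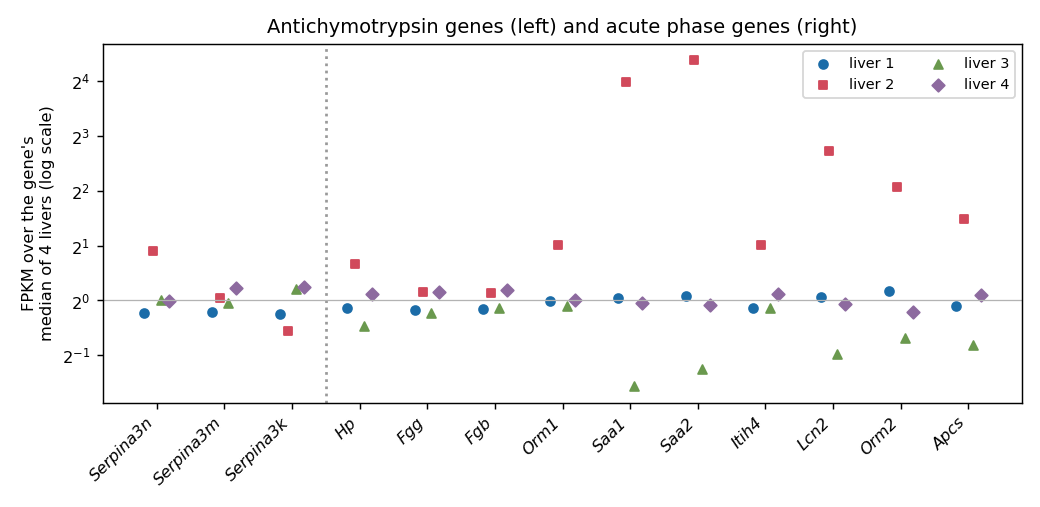
FPKM of Serpina3n, Serpina3m, Serpina3k (left of the dotted line) and 10 acute phase genes (right), each divided by the gene's median over the 4 livers, on a log axis with 1 point per liver. Liver 2 is the top point for Serpina3n and for 9 of the 10 acute phase genes, and the lowest point for Serpina3k.

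A search for TTCNNNGAA, the spaced palindrome that STAT factors bind and which reads alike on both strands, found it in 8.30% of promoters. It was found for 7 of the 51 serpin genes with a promoter, again counted per gene. These were Serpina11, Serpina1f, Serpina3f, Serpina3i, Serpinb2, Serpinb6a and Serpinb9c. No serpin promoter held it together with GTTAAT. No serpin gene at over 100 FPKM with a promoter in the table, Serpina3n included, was among them, which says only that these letters are not in the windows searched.

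The hormone carriers have the serpin fold and release their ligand when the loop is cut. Serpina6, which encodes corticosteroid-binding globulin, measured 263, 277, 294 and 319 FPKM (288 ± 24.3), with neighbouring livers close together. Serpina7, on chromosome X, encodes thyroxine-binding globulin. It measured 35.1, 46.6, 12.8 and 41.2 FPKM (33.9 ± 14.9). Liver 3 was 2.75-fold below the next lowest liver while the other 3 lay within a narrow band. Its SD on log2(FPKM + 1), 0.81, was the widest of the protein-coding serpins with a value in all livers.

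The inhibitors of coagulation, fibrinolysis and complement were the steadiest group. Serpinc1 encodes antithrombin, which blocks thrombin and factor Xa. It measured 896, 907, 856 and 952 FPKM (903 ± 39.4), and its SD on log2(FPKM + 1), 0.06, was the smallest of all 28 expressed serpins. Its span also covers part of Zbtb37.

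Serping1, the complement C1 inhibitor, measured 483, 546, 601 and 543 FPKM (543 ± 48.1). Serpinf2 encodes antiplasmin, the inhibitor of plasmin, and measured 255, 272, 256 and 300.3 FPKM (271 ± 21.1). Serpind1 encodes heparin cofactor II and measured 207, 243, 231 and 245 FPKM (231 ± 17.4), over a deposited span that other genes share. Serpina10, the protein Z-dependent inhibitor of factor Xa, measured 76.5, 92.0, 80.4 and 94.9 FPKM (85.9 ± 8.90). In each of these 4 genes the highest liver was 1.18-fold to 1.24-fold above the lowest, and for Serpinc1 1.11-fold. Summed over the 10 members of the group, FPKM was 1927, 2071, 2033 and 2141 in livers 1 to 4.

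Other members of the group were far lower. Serpine2, protease nexin, measured 7.87, 8.87, 6.78 and 5.82 FPKM. Serpina5, the protein C inhibitor, lay at 0.335 to 0.485 FPKM. Serpinb2 had values up to 0.0566 FPKM, and Serpine3 was listed at 0.

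Among the proteases that these inhibitors meet in plasma, 15 of 15 listed genes in the table were expressed. The highest were prothrombin (F2) at 920.4 ± 97.5 FPKM, plasminogen (Plg) at 701 ± 63.4 and factor XII (F12) at 298 ± 27.0. The median SD of log2(FPKM + 1) over the 15 genes was 0.15, near the 0.16 of all expressed rows. The activators Plau and Plat had means of 1.44 ± 0.434 and 1.11 ± 0.394 FPKM.

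Of serpin partners, 10 of 11 genes were expressed. The highest was vitronectin (Vtn), an adhesive plasma protein that binds serpins, at 1549 ± 224 FPKM. Angiotensinogen (Agt), a serpin by fold that the symbol rule leaves out, measured 326 ± 31.4 FPKM. Surf4, a cargo receptor of the secretory pathway, measured 131 ± 8.39 FPKM.

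Other secreted serpins included a highly expressed member. Serpinf1 encodes pigment epithelium-derived factor, which inhibits vessel growth and is not a protease inhibitor. It measured 541, 450.3, 599.7 and 596 FPKM (547 ± 69.6), lowest in liver 2. Serpina12 encodes vaspin, first known from fat tissue, and measured 19.6, 16.5, 22.7 and 23.7 FPKM, again lowest in liver 2. The adipocyte markers Lep and Plin1 were listed at 0 in all livers and Adipoq in 2 of 4. Serpina11 measured 39.5, 46.5, 46.8 and 57.8 FPKM, and 42.4% of its transcript in 100-base stretches is shared with Gm28577, so its level is uncertain. Serpini1, neuroserpin, lay at 0.108 to 0.395 FPKM, Serpina9 had values up to 0.0764 FPKM, and Serpini2 was listed at 0.

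Serpinh1 encodes the collagen chaperone of the endoplasmic reticulum and is used as a companion of collagen synthesis. It measured 14.2, 15.3, 13.7 and 9.44 FPKM (13.2 ± 2.57), with liver 4 lowest by 1.45-fold. The collagen genes were also highest in liver 2 but were not lowest in the same liver. Col1a1 measured 41.0, 46.9, 31.7 and 32.5 FPKM and Col3a1 37.2, 39.1, 28.3 and 28.5 FPKM, both lowest in liver 3. The sum of 6 stellate cell markers was 233, 295, 191 and 215 FPKM, most of it Dcn (139.8, 194, 117 and 141 FPKM). Of the low markers in that list, Pdgfrb (3.99 FPKM) and Lrat (3.26 FPKM) were lowest in liver 4, as Serpinh1 was, and Reln was highest there. The part of these cells in the level of Serpinh1 was not tested.

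The clade B serpins, which guard the inside of cells against their own proteases, mostly had low values or were listed at 0. Serpinb2, also of clade B, was counted above with the inhibitors of coagulation, fibrinolysis and complement. Of the 26 other members 5 were expressed, against 43.7% of all rows. Listed at 0 in all livers were 18, against 32.2% of all rows, which by itself does not show that they were not expressed. Serpinb6a, an inhibitor of cathepsin G, was the highest at 10.5, 14.5, 10.4 and 17.4 FPKM, in a deposited span that it shares with Nqo2. Serpinb9, the inhibitor of granzyme B, measured 3.64, 3.53, 3.35 and 4.60 FPKM. Serpinb6b measured 4.96, 4.11, 1.94 and 2.43 FPKM, highest in liver 1.

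Serpinb8, which inhibits furin, measured 1.27, 2.25, 1.26 and 1.81 FPKM. Serpinb1a, an inhibitor of neutrophil elastase, measured 1.48, 1.51, 0.442 and 1.03 FPKM, from about 14.8 to 51.3 fragments. All 5 were lowest in liver 3, where 31.4% of all expressed rows were lowest, although for Serpinb6a and Serpinb8 liver 1 lay within 1.01-fold of it. The sum of 5 macrophage markers was also lowest in liver 3, at 76.1 FPKM against 84.4, 109 and 119 FPKM in livers 1, 2 and 4. Its part in the clade B values was not tested. Serpinb7 had a value only in liver 4 (0.157 FPKM), and Serpinb1b and Serpinb10 did not exceed 0.0799 FPKM.

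The proteases that clade B serpins and their relatives inhibit were examined next. Of 13 listed proteases of leukocytes and cell surfaces, 8 were expressed, led by cathepsin L (Ctsl) at 275 ± 31.9 FPKM, hepsin (Hpn) at 274 ± 35.3 and Tmprss6 at 129.9 ± 10.7. Neutrophil elastase (Elane) averaged 0.298 FPKM and granzyme B (Gzmb) 0.210 FPKM, and the mast cell protease Mcpt4 was listed at 0. Proteinase 3 (Prtn3), another neutrophil protease, averaged 1.87 FPKM. The table gives Elane and Prtn3 the same merged span, so both values are uncertain. For comparison, the inhibitors Serpinb1a and Serpinb9 averaged 1.12 and 3.78 FPKM.

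Serpina4-ps1, annotated as a pseudogene of the kallistatin gene, varied most among the expressed members with a value in all livers. It measured 4.61, 9.85, 34.1 and 30.2 FPKM in livers 1 to 4. The range was 7.41-fold and the SD on log2(FPKM + 1) was 1.27. Livers 3 and 4 were high and liver 1 lowest. It shared no 50-base stretch with another transcript, and its values rest on about 101 to 722 fragments.

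Ranked by mean, the 25 expressed serpins with a value in all livers run from Serpina3k through Serpina1d, Serpinc1 and Serpinf1 down to clade B members near 1 FPKM. The 4 highest stood clear of each other, every liver of 1 gene lying above every liver of the next. Of the 24 neighbouring pairs in this order, 16 had overlapping ranges. Since all genes were measured in the same livers, the pairs were also compared within each liver. Of the 16, 5 kept the same order in all 4 livers: Serping1 over Serpina3n, Serpina6 over Serpinf2, Serpine2 over Serpina3f, Serpina3f over Serpinb9 and Serpinb6b over Serpinb8. In the other 11 pairs the order changed between livers, as for Serpinf1 and Serping1, so neighbours there cannot be ranked.

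The spread between the livers was wider for serpins than for expressed rows at large, which were not matched to them for level. Of the 28 members 14 had a mean of at least 100 FPKM, whereas 1554 of the 10541 rows reached 50 FPKM in some liver. On log2(FPKM + 1) differences of low genes are understated. The median SD of log2(FPKM + 1) was 0.25 over the 28 expressed members and 0.24 over the 25 with a value in all livers, against 0.16 over all 10541 expressed rows. An SD of at least 0.25 was reached by 14 of 28 members (50%), or 11 of the 25 (44%), against 18.3% of all expressed rows. The 4 widest among the 25 were Serpina4-ps1, Serpina7, Serpina3n and Serpinb6b. Dixon's ratio on log2(FPKM + 1) set no liver apart for any of the 28 (5.46% of all expressed rows), and on FPKM it did so for Serpina3n alone (5.64%). Serpin genes are not independent replicates, and these counts describe 4 livers.

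Liver 4 was the highest liver for 13 of the 28 members (33.3% of all expressed rows), liver 2 for 9 (22.0%), liver 1 for 3 (17.9%) and liver 3 for 3 (26.8%). Without the 3 antitrypsin genes listed at 0 in livers 3 and 4, these counts were 13, 8, 1 and 3 of 25. After median-ratio scaling of the libraries liver 4 was highest for 7 of the 28 (23.3% of all expressed rows under the same scaling), liver 2 for 12 (26.6%), liver 1 for 3 (19.9%) and liver 3 for 6 (30.2%). Serpinc1, Serpina10 and Serpind1 then became highest in liver 2, and Serpina3k, Serpina12 and Serpina1d in liver 3. The sum of the hepatocyte markers, of which Alb is listed at 0, was 23817, 21888, 22269 and 30338 FPKM in livers 1 to 4, also highest in liver 4. Apoa1, Cyp2e1 and Ttr had their highest values there, while Cps1 (748 FPKM) and Hnf4a (156 FPKM) were highest in liver 3. After the scaling the marker sum was 23968, 22216, 22524 and 29279 FPKM. The part of this sum in the serpin levels was not tested. Among the 25 members with a value in all livers, liver 1 was lowest for 9 (20.7% of such rows), liver 3 for 8 (31.4%), liver 2 for 5 (29.9%) and liver 4 for 3 (18.1%). The median deviation of these 25 from their own means was -0.13, 0.05, -0.08 and 0.15 in livers 1 to 4 on log2(FPKM + 1), against -0.01, -0.02, -0.01 and 0.04 over all 10525 such rows.

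**Figure D5:**
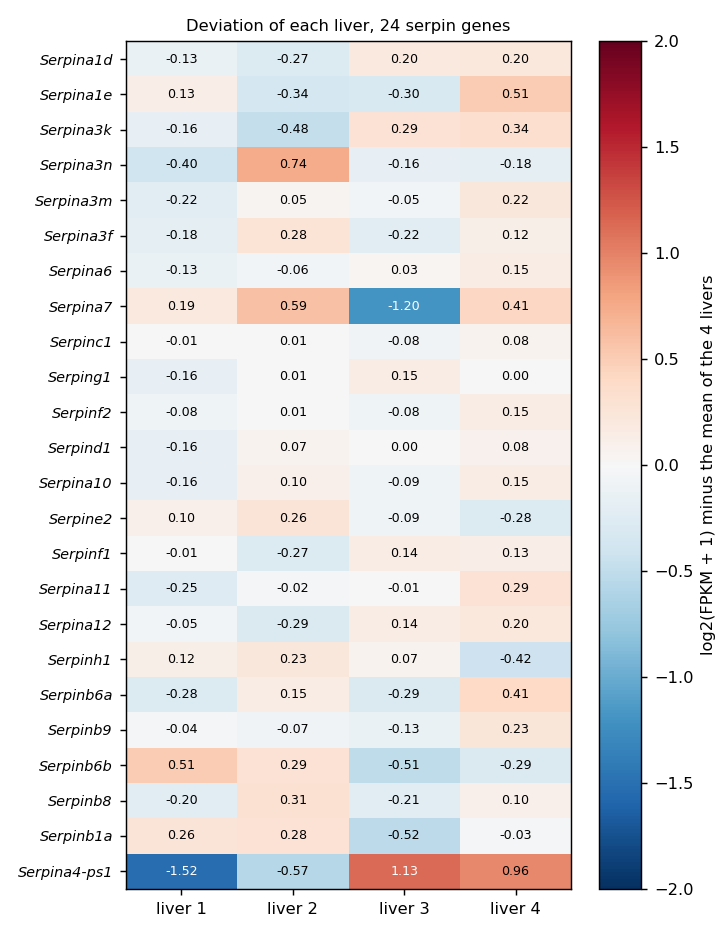
Deviation of each liver from the gene's mean over the 4 livers, on log2(FPKM + 1), for 24 of the 25 expressed serpin genes with a value in all livers; red is above and blue below the mean. Serpina4-ps1, Serpina7 in liver 3 and Serpina3n in liver 2 carry the deepest colours, and Serpinc1 the palest.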

How the data were processed

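Liver RNA of 4 mice was measured. The deposited table holds values by gene, which were taken to be FPKM made by the authors: its header names no unit, but its identifiers have the Cufflinks form and low values scale inversely with transcript length. FastQC 0.10.1, Trim Galore 0.6.3, cutadapt, STAR 2.7.6a, Cufflinks 2.2.1 and mm10 are named per the submitters' processing notes. The annotation is not given in the sources used here. Columns were matched to livers through sample descriptions, with 0 unmatched. Starts had 1 added, after which 35 of 62 members had the RefSeq start (GRCm38), against 2 as deposited. All 62 overlapped the RefSeq span, and 6 expressed members have a span that holds another coding gene.

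Values were analysed as log2(FPKM + 1), which understates differences of low genes. Depth was approximated from the value taken for 1 fragment in single-transcript genes, within a set window that bounds it, so all fragment numbers are rough. Livers differed by a median of 0.16 to 0.20 in log2(FPKM + 1) over expressed rows, so none was a duplicate. The labels name separate livers, and with 1 group no comparison between groups was possible and no p-value was computed. Dixon's ratio is the gap of the extreme liver over the range. It was tested on simulated data. Sequences came from GENCODE vM21 and RefSeq tables of GRCm38. Alternatives were other pseudocounts, filters, scaling, livers left out, and Dixon's ratio on FPKM, the last added after the data were seen. Members whose mean reached 1 FPKM were named by role, and other lists by counts, their 3 highest genes and genes beyond Dixon's value. Further genes of those lists (Saa1, Saa2, Hp, Fgb, Plau, Plat, Elane, Gzmb, Mcpt4, Prtn3, Lcn2, Itih4, Pdgfrb, Lrat, Reln, Mpo, Cxcr2, Cps1, Hnf4a) were named after their values were seen. The values of 1 expressed member are not reported here, though counts and sums include it. Members, lists and roles were chosen with earlier results of these data known. Python 3.11.15, pandas 2.3.3, numpy 2.4.6, Biopython 1.88 and matplotlib 3.10.9 were used.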

Additional observations from a re-analysis of the deposited data

Results flagged for a closer look

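For some genes 1 liver stood apart from the other 3 by Dixon's ratio, which chance does for about 1 in 20 groups. Among serpins this was Serpina3n at 528 FPKM in liver 2, on FPKM and not on log2(FPKM + 1). Among acute phase genes liver 2 stood apart for Orm1 at 1631 FPKM on both scales. On FPKM only, it did so for Saa1 at 2135, Saa2 at 2106, Itih4 at 960.2, Lcn2 at 714 and Orm2 at 235 FPKM. Edem1, a factor of endoplasmic reticulum degradation that acts on misfolded antitrypsin, stood apart in liver 2 at 29.6 FPKM, only 1.08-fold above the next liver. In liver 4 the protease Hpn at 326 FPKM and the marker Apoa1 at 15343 FPKM were apart on the high side, and Sox9 at 3.37 FPKM on the low side, the last on log2(FPKM + 1) only.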

How the results depend on the processing

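Of 51 alternative values of the summary results, 39 stayed within the range set for them. The median SD of the expressed serpins was 0.29 with a pseudocount of 0.1, 0.19 with 5 and 0.18 with no filter on level. The median over all rows was not computed under these settings. The count with an SD of at least 0.25 was 9 with a pseudocount of 5. Keeping members with a value in all livers gave a share of 1.85% and 1 member highest in liver 1. A minimum mean of 5 FPKM left 5 members highest in liver 2. Median-ratio scaling left 6 highest in liver 3 and 7 in liver 4. Dixon's ratio set a liver apart for 2 members with no filter, and for 1 on FPKM. Leaving out 1 liver at a time gave 26 to 28 expressed members, a median SD of 0.19 (without liver 2) to 0.27, 11 to 17 members with an SD of at least 0.25, and shares of 2.31% to 2.66%. Dixon's ratio was not run on 3 livers. By the rough depth estimate, values near 0.05 FPKM rest on about 1 fragment per kb, and antitrypsin copies share sequence.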
